A study of Capra hircus with 36 samples.

Results

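The heart miRNA profile was read from 6 of the 36 small RNA libraries of a goat series, taken by their tissue label and covering both altitudes. The other 30 libraries came from kidney, liver, lung, longissimus muscle and spleen, 6 per tissue, and heart was compared with each of these 5 tissues for miRNAs enriched in or depleted from it. All goats were adult females of > 3 year, 3 of them Tibetan goats living at 3000 m and 3 of them Chuandong White goats living at 600 m, and each goat gave all 6 tissues. Each tissue therefore held 3 libraries per population, and breed and altitude cannot be told apart in this design.

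The high-altitude hearts had 12370181, 12390408 and 11768908 counts on miRNAs, and the low-altitude hearts had 12211721, 10779449 and 12347702. Library totals ran from 9643978 to 11265856 in kidney, 7108635 to 9205957 in liver, 9653266 to 10849570 in lung, 12234350 to 14407748 in muscle and 7312782 to 11005084 in spleen. The counts of miR-133a-3p are listed again under the name miR-133b-5p and enter these totals under both names, while the shares below count them once. Levels below are CPM (counts scaled to library size) after TMM scaling, with factors of 0.624 to 0.956 in heart and 0.446 to 2.03 over all libraries. Of 1391 listed miRNAs, 524 to 595 had a count in a given heart library, 369 were detected in all 6 hearts and 553 in none. A heart mean of at least 10 CPM was reached by 265 miRNAs. A count of 3 in a heart library equals 0.267 to 0.446 CPM, and this floor covers counting error only.

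MiRNAs are short RNAs that guide silencing of the mRNAs they pair with. Striated muscle makes a set called myomiRs: miR-208a, miR-208b and miR-499 lie in introns of myosin heavy chain genes and are transcribed with them, miR-1 and miR-133 are made in heart and skeletal muscle, and miR-206 is a skeletal muscle miRNA. Other organs have their own dominant miRNAs, among them miR-122 of hepatocytes and the miR-34b/c and miR-449 groups of multiciliated cells.

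These markers fitted the heart label of all 6 libraries. The lowest heart value of chi-miR-208b-3p was 12378 CPM and its highest value among the other 30 libraries was 7333 CPM, in muscle. For chi-miR-499-5p the same values were 5416 and 4498 CPM, the latter again in muscle. Of miR-206-3p no heart library had more than 9.46 CPM and no muscle library less than 60.8 CPM. The hepatocyte marker miR-122-5p did not exceed 104 CPM in heart and was at least 4038 CPM in liver, and miR-34c-5p did not exceed 17.0 CPM in heart and was at least 1216 CPM in lung.

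The miRNAs that set heart apart from all 5 tissues were few, and skeletal muscle was the nearest tissue. With a call at adjusted p < 0.05 in edgeR and a log2 fold change of at least 1.5 in size, heart was higher than each of the 5 tissues for 13 of 1391 miRNAs (0.935%) and lower than each for 4 (0.288%). The 13 held both markers, miR-27b-3p, miR-100-5p, miR-490-3p, miR-708-3p, miR-181c-3p and miR-582-5p. Leaving out low-altitude goat 2 or low-altitude goat 3 took the 13 to 8 in each case, and leaving out high-altitude goat 2, low-altitude goat 2 or low-altitude goat 3 took the 4 to 2. In 11 miRNAs (0.791%) all 6 heart libraries lay above all 30 others, and in 0 (0%) all 6 lay below them. The 11 were not all members of the 13. MiR-6516-1-5p, at 3.76 to 5.54 CPM in heart and up to 3.55 CPM elsewhere, was called against 0 tissues, and miR-708-5p against 2. MiR-8974-3p, called against 4, lay near the floor at 0.267 to 0.669 CPM in heart. These members were named after their values were seen.

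Tissue by tissue, heart was higher than muscle for 42 miRNAs (3.02%) and lower for 64 (4.6%), the smallest difference of the 5. Against kidney 70 (5.03%) were higher and 105 (7.55%) lower, against liver 73 (5.25%) and 90 (6.47%), against lung 74 (5.32%) and 62 (4.46%), and against spleen 71 (5.1%) and 92 (6.61%). Set against the mean of the 5 tissues, 92 miRNAs (6.61%) were higher in heart and 49 (3.52%) lower, and 68 of the 92 had their highest tissue mean in heart. Muscle had the next highest mean for 44 of the 92. The balance of higher and lower calls moved with the scaling. With library totals alone, 44 were higher and 121 lower than in kidney, 42 and 138 for liver, 48 and 125 for lung, 66 and 51 for muscle, 45 and 152 for spleen and 71 and 67 for the mean. Higher calls thus went from 40% to 26.7% of calls for kidney, 44.8% to 23.3% for liver, 54.4% to 27.7% for lung, 39.6% to 56.4% for muscle, 43.6% to 22.8% for spleen and 65.2% to 51.4% for the mean. DESeq2 turned the balance for the mean, with 69 higher and 101 lower. The median shift of the log2 fold changes with library totals alone was -0.15, -0.35, -0.42, 0.15, -0.38 and -0.23 in the order given.

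**Figure D1:**
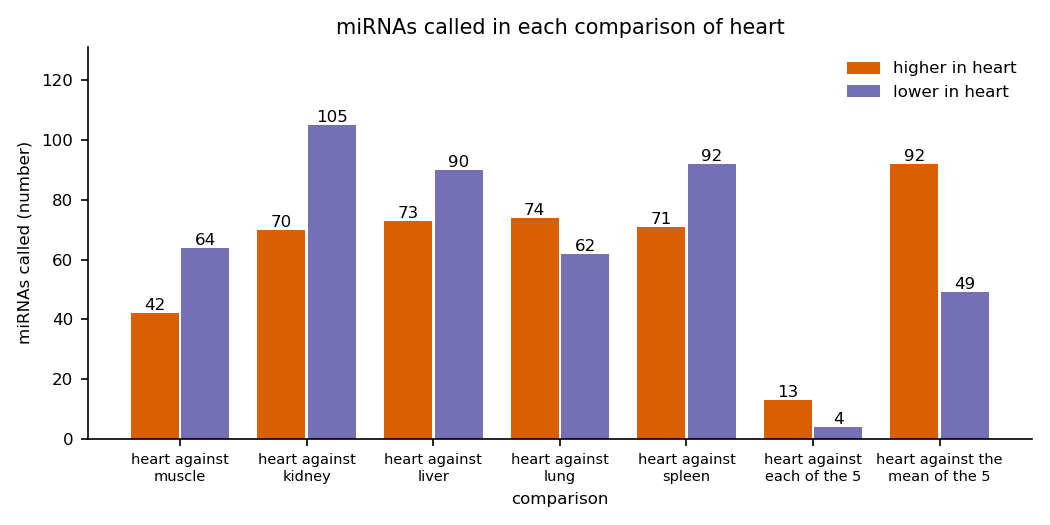
Number of miRNAs called higher or lower in heart (6 libraries) than in each other tissue (6 libraries per tissue), than in all 5 tissues and than in their mean. Calls are at adjusted p < 0.05 in edgeR and a log2 fold change of at least 1.5 in size.

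Many miRNAs that set heart apart from the 4 other organs were not called against skeletal muscle, which was no test that the levels were equal. Heart was higher than all 4 non-muscle tissues for 40 miRNAs, of which 13 were also higher than muscle, 26 were called neither way and 1, miR-133a-5p, was lower than in muscle. The miR-133a-5p call against muscle was lost in 11 of 12 runs with a heart library or a goat left out. The 31 miRNAs higher than in exactly 4 tissues missed the call against muscle in 27 cases. The exceptions were miR-24-3p and miR-8886-3p (lung), miR-30f-5p (kidney) and miR-582-3p (spleen), named after their values were seen. These counts hold miR-133a-3p under both of its names. In bulk tissue, fewer cells of a type and less RNA per cell cannot be told apart, and this holds for every comparison below.

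The 2 myosin-intron markers were higher in heart than in all 5 tissues, with muscle as the next highest tissue. MiR-208b-3p was 19745, 13221 and 12378 CPM in the high-altitude hearts and 16063, 22156 and 22037 CPM in the low-altitude hearts, and in muscle its lowest, median and highest values were 1165, 2074 and 7333 CPM. All 6 hearts were above all muscle libraries. The heart mean of 17600 CPM (SD 4333) was 5.26-fold the muscle mean of 3345 (SD 2739), with a log2 fold change of 2.56 (SE 0.68, edgeR adjusted p = 0.0124, higher in 6 of 6 goats). Means were 29.6 CPM in liver, 14.1 in spleen, 12.7 in kidney and 6.44 in lung, and the log2 fold changes over these 4 tissues were 9.30, 10.27, 10.65 and 12.20. It made up 1.53% of heart counts. In the high-altitude goats alone the muscle comparison was not called (log2 fold change 1.62, adjusted p = 0.462), nor was it without an altitude term (2.40, adjusted p = 0.0517).

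MiR-499-5p had 8570, 7731 and 5416 CPM in the high-altitude hearts and 11221, 11316 and 10397 CPM in the low-altitude hearts, while muscle ran from 907 to 4498 CPM with a median of 1332. Again the groups did not overlap. Mean levels were 9108 CPM (SD 2316) in heart and 1957 (SD 1362) in muscle, 4.65-fold apart, with a log2 fold change of 2.32 (SE 0.60, edgeR adjusted p = 0.0104, higher in 6 of 6 goats). Over liver, kidney, spleen and lung, where means were 87.7, 56.5, 28.6 and 26.8 CPM, the log2 fold changes were 7.33, 8.30, 8.38 and 9.13. Its share of heart counts was 0.785%. As for miR-208b-3p, the muscle comparison was not called in the high-altitude goats alone (1.39, adjusted p = 0.594) or without an altitude term (2.22, adjusted p = 0.116).

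**Figure D2:**
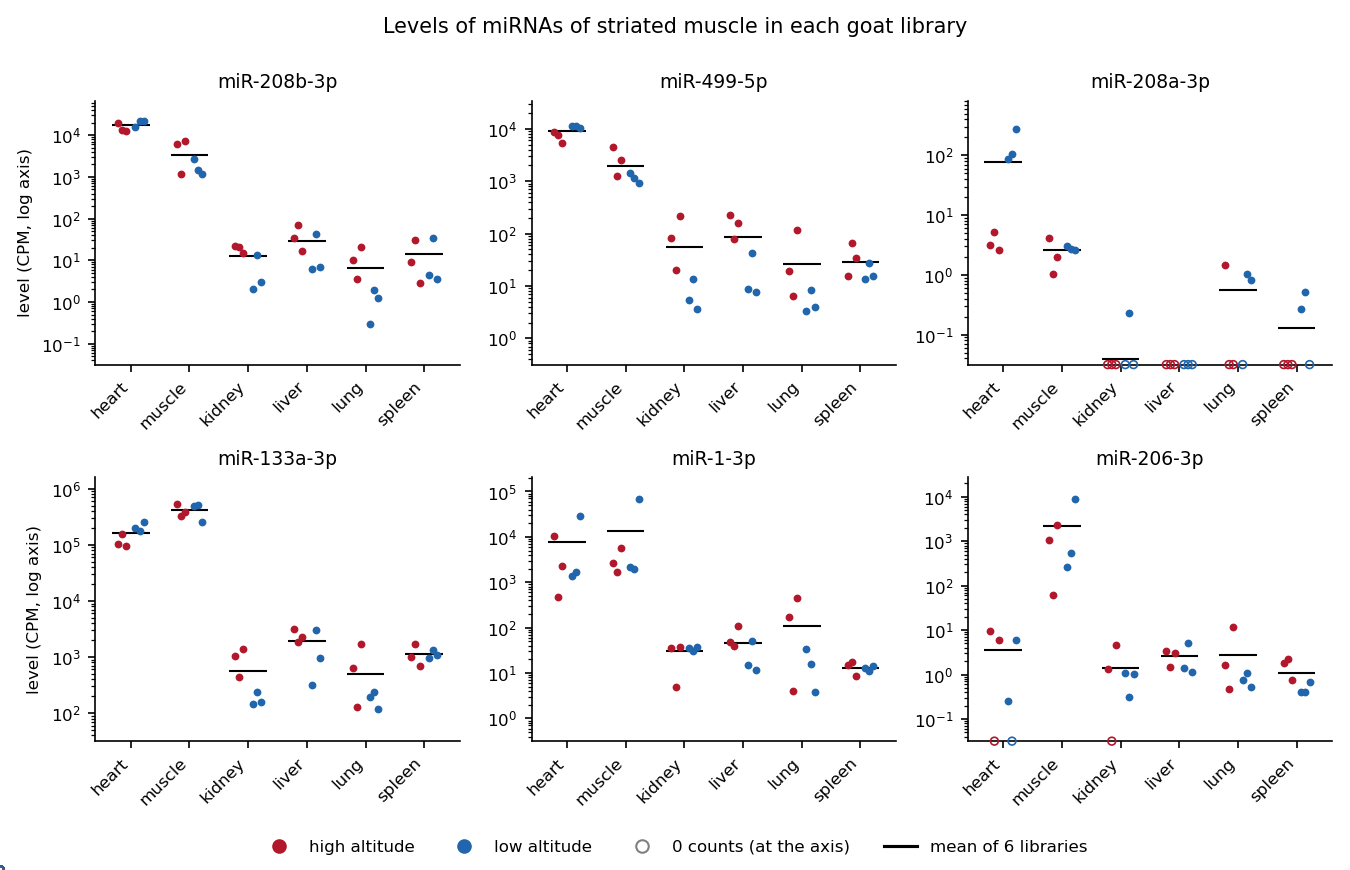
Level of miR-208b-3p, miR-499-5p, miR-208a-3p, miR-133a-3p, miR-1-3p and miR-206-3p in the 6 tissues, in CPM on a log axis. Each point is 1 library (red, high altitude; blue, low altitude), open circles on the axis are libraries at 0 and black lines are the means of 6 libraries.

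The other arms of these precursors were much less abundant and were not called against muscle in the main fit. MiR-499-3p had a lowest, median and highest heart value of 74.8, 126 and 319 CPM and a muscle range of 18.7 to 111 CPM, so the groups overlapped. Its log2 fold change over muscle was 1.74 (SE 0.58, edgeR adjusted p = 0.057, higher in 5 of 6 goats), and it was at least 7.19 over each other tissue. Without high-altitude heart 1, 2 or 3 or low-altitude heart 3 the muscle comparison was called, with log2 fold changes of up to 2.10 and adjusted p of 0.0292 to 0.0379. It was 0.15 in the high-altitude goats alone and called in the low-altitude goats alone (3.42, adjusted p = 0.0443), and 12 of 25 other settings called it in all. MiR-208b-5p reached 1.62 to 8.40 CPM in heart against a muscle mean of 1.93 (log2 fold change 1.12, SE 0.83). It had 0 counts in kidney, liver and lung, which puts heart at least 83.5-, 85.5- and 114-fold higher.

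MiR-208a-3p, from an intron of the alpha myosin heavy chain gene, had 3.15, 5.31 and 2.58 CPM in the high-altitude hearts and 87.1, 104 and 271 CPM in the low-altitude hearts. Muscle libraries had 1.04 to 4.20 CPM, which overlapped the high-altitude hearts. The log2 fold change over muscle was 3.19 (SE 1.02, edgeR adjusted p = 0.0531, higher in 5 of 6 goats), not a call. It was 0.61 in the high-altitude goats alone and called in the low-altitude goats alone (5.90, adjusted p = 0.0183), and 12 of 24 other settings called it in all. Leaving out high-altitude heart 1, high-altitude heart 3, low-altitude heart 2 or high-altitude goat 1 brought the call, with log2 fold changes of 3.60 to 3.90 and adjusted p of 0.0198 to 0.0415. Over lung, spleen and kidney the values were 5.40, 8.76 and 9.48, and liver had 0 counts in all 6 libraries, which puts heart at least 1724-fold higher. The other arm, miR-208a-5p, had 0 to 11.9 CPM in heart and 0 counts in kidney, liver, lung and spleen. Its calls over these 4 tissues (log2 fold change 6.60) were lost with a replicate block for the goat, at adjusted p of 0.109 to 0.128. All 4 were also lost without high-altitude heart 2, high-altitude goat 2 or low-altitude goat 1 or 3. Without low-altitude goat 2 those over kidney, liver and lung were lost too.

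Outside the myomiRs, the most abundant miRNA higher in heart than in all 5 tissues was miR-27b-3p, a miRNA broadly expressed in muscle and vessels. Its lowest, median and highest heart values were 68970, 80155 and 92047 CPM, and muscle, the next highest tissue, ran from 12019 to 49752 CPM. No library of the other 30 reached the heart range. The mean of 80249 CPM (SD 9294) was 2.94-fold the muscle mean of 27284, a log2 fold change of 1.65 (SE 0.29, edgeR adjusted p = 0.000191, higher in 6 of 6 goats). The values over lung, kidney, liver and spleen were 1.98, 2.03, 2.21 and 3.02. With library totals alone those over liver (1.49) and lung (1.20) fell short of the fold threshold. In the high-altitude goats alone the comparisons with muscle (1.06, adjusted p = 0.449), lung (1.685, 0.107) and kidney (1.87, 0.0554) were not called.

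MiR-100-5p differed more between hearts, with 17187, 7617 and 18488 CPM at high altitude and 127730, 130440 and 34937 CPM at low altitude. Liver was next highest with a range of 1208 to 22998 CPM, which overlapped the high-altitude hearts. The highest of the other 30 libraries was a kidney at 37392 CPM, above 4 of the 6 hearts. The log2 fold change over liver was 2.57 (SE 0.62, edgeR adjusted p = 0.00326, higher in 6 of 6 goats), and over muscle it was 2.14 (adjusted p = 0.02). Over lung it was 2.49, higher in 5 of 6 goats. The kidney comparison was not called without low-altitude goat 2 (2.12, adjusted p = 0.0535), and without an altitude term kidney (2.55, adjusted p = 0.0724), liver (2.46, 0.0823) and muscle (2.57, 0.0839) were not called. In the high-altitude goats alone the value over lung was 0.48 (0.974), that over liver 2.72 (0.108), that over muscle 1.45 (0.544) and that over kidney 2.46 (0.142). In the low-altitude goats alone liver (2.32) stood at 0.0539 and kidney at 0.0527.

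At intermediate levels miR-490-3p, from an intron of the muscarinic receptor gene CHRM2, stood out by its low level in skeletal muscle. Heart libraries had 441 to 1122 CPM with a median of 589, and the next highest tissue, kidney, had 58.1 to 157 CPM without overlap. Heart was 7.96-fold higher than kidney by the means of 651 and 81.8 CPM, with a log2 fold change of 2.99 (SE 0.51, edgeR adjusted p = 5.22e-05, higher in 6 of 6 goats). In muscle the mean was 7.21 CPM, the lowest of the 5 tissues, and the log2 fold change was 6.49. Values over liver, lung and spleen were 3.48, 3.57 and 5.35.

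MiR-708-3p had 361 to 1217 CPM in heart, with a median of 622, and no other library exceeded 283 CPM. In the low-altitude spleens it was 24.7, 0 and 0 CPM, and the fit without gapped miRNAs left it out. Liver was next highest at a mean of 111 CPM, with a log2 fold change of 2.67 (SE 0.89, edgeR adjusted p = 0.0428, higher in 6 of 6 goats), and kidney followed at 105 CPM (2.65, adjusted p = 0.0443). The kidney call was lost in 11 of 12 runs with a heart library or a goat left out, all but the run without low-altitude goat 1, at adjusted p of 0.0517 to 0.145. In 9 of those runs, all but those without high-altitude heart 2 or low-altitude goat 3, the liver call was lost as well, at adjusted p of 0.0519 to 0.16. It was also lost with library totals alone (1.96, adjusted p = 0.114), robust spread (0.0501), no altitude term (0.0605), and in the high-altitude (0.231) and low-altitude goats alone (0.245), so that miR-708-3p stayed higher than all 5 tissues in 7 of 24 settings. Its other arm, miR-708-5p, lay at 142 to 341 CPM in heart and at no more than 138 CPM in the other 30 libraries, and was called against 2 tissues. This arm was chosen after its values were seen.

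MiR-181c-3p had 30.2, 38.5 and 47.5 CPM as lowest, median and highest heart values and 6.03 to 22.1 CPM in lung, the next highest tissue. The groups did not overlap, and the log2 fold change was 1.62 (SE 0.40, edgeR adjusted p = 0.00426, higher in 6 of 6 goats). Without high-altitude heart 3 or low-altitude heart 3 it was 1.39 to 1.46, under the fold threshold, as it was with RLE factors (1.41), filterByExpr (1.45), DESeq2 (1.41) and library totals alone (0.84). MiR-582-5p had 10.8, 31.6 and 54.6 CPM in heart and 5.04 to 11.4 CPM in spleen, the next highest, with a small overlap. Its log2 fold change over spleen was 2.07 (SE 0.45, edgeR adjusted p = 0.00118, higher in 6 of 6 goats), kept with each heart library and each goat left out and lost with library totals alone (1.26, adjusted p = 0.0712). The other arm, miR-582-3p, at 14.9 to 50.3 CPM, was higher than in all tissues but spleen (1.26, adjusted p = 0.042).

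Less abundant members completed the miRNAs named by rule. MiR-139-3p, with 3.57 to 19.7 CPM in heart, was next highest in liver at up to 5.75 CPM (log2 fold change 2.23, SE 0.69, edgeR adjusted p = 0.0261, higher in 6 of 6 goats). That call was lost without high-altitude heart 1 or 3, low-altitude heart 3, high-altitude goat 1 or low-altitude goat 1, 2 or 3, at adjusted p of 0.0522 to 0.159. MiR-48-5p, a predicted miRNA with no miRBase match, had 12.4 to 23.7 CPM in heart and 2.84 to 5.46 CPM in muscle (2.09, SE 0.62, adjusted p = 0.0343). It had 0 counts in liver and lung, at least 406- and 542-fold lower. Its muscle call was lost without low-altitude heart 1, high-altitude goat 1 or 2 or low-altitude goat 1, 2 or 3 (adjusted p of 0.0553 to 0.163), and its kidney call (2.26) without each of those 5 goats in turn (0.0589 to 0.137). MiR-247-3p, also a predicted miRNA, had 10.2 to 18.9 CPM in heart and 1.79 to 7.33 CPM in spleen, its next highest tissue (1.94, SE 0.51, adjusted p = 0.00735). Without high-altitude goat 3 or low-altitude goat 1 or 3 the spleen call was lost at adjusted p of 0.0502 to 0.0547 and the muscle call (2.03) at 0.0568 to 0.101, and without low-altitude goat 2 the kidney call at 0.0691. With library totals alone the calls over the next highest tissue were lost for miR-139-3p (1.56, adjusted p = 0.161) and miR-247-3p (1.14, 0.258), and for miR-48-5p the call over kidney (1.84, 0.0978).

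The remaining members of the 13 lay near the detection floor and were named after their values were seen. MiR-123-5p, another predicted miRNA, had 0 to 5.50 CPM in heart and 0 counts in all 30 other libraries, which puts heart at least 35.8-fold above muscle and at least 67.5-fold above lung. Its muscle call was lost in 9 of 12 runs, those without high-altitude heart 1 or 3, low-altitude heart 2 or 3, high-altitude goat 1, 2 or 3 or low-altitude goat 2 or 3, at adjusted p of 0.0522 to 0.122. A replicate block for the goat ended its calls (adjusted p = 0.223 for muscle), as did DESeq2 (0.4). MiR-202-3p had 0.128 to 2.29 CPM in heart and at most 0.156 CPM in muscle (4.81, adjusted p = 0.0437). The muscle call was lost in 11 of 12 runs, all but the run without high-altitude heart 3 (adjusted p of 0.0531 to 0.197), and with the replicate block (0.103) and in DESeq2 (0.43).

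**Figure D3:**
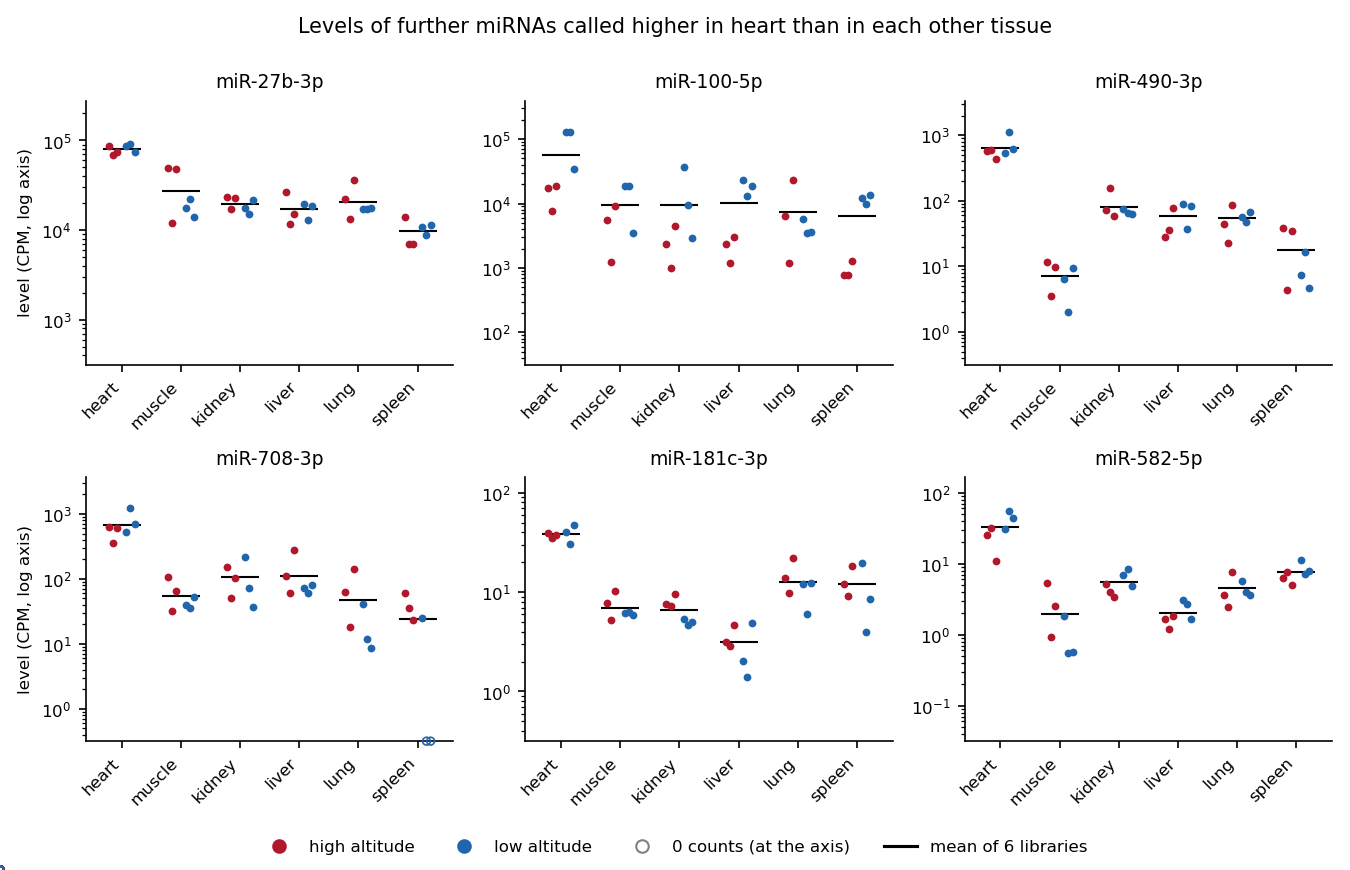
Level of miR-27b-3p, miR-100-5p, miR-490-3p, miR-708-3p, miR-181c-3p and miR-582-5p in the 6 tissues, in CPM on a log axis. Each point is 1 library (red, high altitude; blue, low altitude), open circles on the axis are libraries at 0 and black lines are the means of 6 libraries.

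Several of the miRNAs high in heart had similar or higher levels in skeletal muscle. MiR-133a-3p, listed with the same counts as miR-133b-5p so that the 2 names cannot be separated, had the largest mean share of heart counts, 14.3%, though not the largest share in any high-altitude heart. Heart values were 94647 to 254480 CPM with a median of 165490, and muscle values were 260500 to 531380 CPM, above all hearts. The log2 fold change over muscle was -1.39 (SE 0.45, edgeR adjusted p = 0.0438, higher in 0 of 6 goats), under the fold threshold, while over liver, spleen, kidney and lung it was 6.41, 7.14, 8.57 and 8.67. MiR-133a-5p had 49.5 to 119 CPM in heart and 68.0 to 1680 CPM in muscle (-1.92, SE 0.58, adjusted p = 0.0312). The 1680 CPM came from high-altitude muscle 2 alone, and the other muscle libraries had 68.0 to 153 CPM, overlapping heart. The call against muscle was kept only in the run without high-altitude goat 3. It was lost in the other 11 of 12 (-1.99 to -0.28, adjusted p from 0.0664 up), and with a replicate block it was lost at 0.0853.

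MiR-1-3p varied widely between hearts, with 10341, 462 and 2337 CPM at high altitude and 1385, 1696 and 29507 CPM at low altitude. Muscle ran from 1692 to 67808 CPM and overlapped heart over most of its range, with a log2 fold change of -0.39 (SE 0.88). Lung, liver, kidney and spleen were lower by 6.84, 7.39, 7.85 and 9.04. MiR-206-3p went the other way: 0 to 9.46 CPM in heart, 60.8 to 9075 CPM in muscle, no overlap, and a log2 fold change of -9.20 (SE 1.49, edgeR adjusted p = 5.06e-05, higher in 0 of 6 goats). It was at no more than 11.7 CPM in the other 4 tissues, and heart was not called against any of them.

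MiR-378-3p, from an intron of the PPARGC1B gene, had 22318, 25170 and 34855 CPM as lowest, median and highest heart values. In muscle it was at 49105 to 65949 CPM, above all hearts (log2 fold change -1.11, SE 0.23, edgeR adjusted p = 0.00153). Spleen, kidney, liver and lung lay far lower, at log2 fold changes of 3.73, 3.97, 4.14 and 4.97, each higher in heart in 6 of 6 goats. MiR-378-5p followed it, at 104 to 163 CPM in heart and 214 to 338 CPM in muscle. MiR-95-3p had 111 to 236 CPM in heart and 72.4 to 200 CPM in muscle (0.54, SE 0.40), and no other library exceeded 12.4 CPM. Both miR-378-5p and miR-95-3p were chosen after their values were seen. MiR-486-3p had 58.6 to 76.5 CPM in heart and 36.4 to 112 CPM in muscle (-0.09, SE 0.77), and log2 fold changes of 4.48 to 8.41 over the other 4 tissues. Its other arm, miR-486-5p, had 13991 to 56262 CPM in heart, and its kidney call (5.70, adjusted p = 0.0445) was lost in 10 of 12 runs, all but those without high-altitude goat 1 or 2 (0.0517 to 0.186), and with a replicate block (0.0632). MiR-486-5p was at 0 in high-altitude kidney 2, lung 2 and spleens 2 and 3, and at 1.88 CPM in high-altitude liver 1. The other kidney libraries had 237 to 1020 CPM.

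Depletion from heart against every tissue was called for 4 miRNAs, and miR-31-5p was the main case. With library totals alone 8 were lower than each tissue and 9 higher, and in the high-altitude goats alone 1 and 0. Heart values were 1.15, 2.57 and 4.68 CPM as lowest, median and highest, and spleen, the next lowest tissue, had 4.29 to 27.1 CPM, so that the groups just touched. The log2 fold change against spleen was -1.92 (SE 0.28, edgeR adjusted p = 7.69e-06, lower in 6 of 6 goats). Mean levels were 13.4 CPM in spleen, 20.4 in muscle, 99.4 in lung, 108 in kidney and 1352 in liver, with log2 fold changes of -2.90, -5.12, -5.31 and -8.94 for the last 4. In the low-altitude goats alone the spleen comparison was not called (-1.19, adjusted p = 0.0808).

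The other members of the 4 were chosen after their values were seen, since the next lowest tissue was under 10 CPM. MiR-190b-5p was at 0.478 CPM in 1 heart and at 0 in the other 5, with 0.274 to 0.737 CPM in kidney (log2 fold change -3.66, SE 0.85, edgeR adjusted p = 0.00255, lower in 6 of 6 goats) and 4.58 to 71.8 CPM in muscle (-9.70). In the high-altitude goats alone the values against kidney (-1.38, adjusted p = 0.581), spleen (-1.86, 0.415) and liver (-2.27, 0.341) were not called. MiR-10a-3p had 0.221 to 2.67 CPM in heart and 1.81 to 6.01 CPM in liver (-1.67, SE 0.44, adjusted p = 0.00882), with 43.9 CPM on average in kidney (-5.53). Its liver call was lost without high-altitude heart 1, low-altitude heart 3, high-altitude goat 1 or 2 or low-altitude goat 2 or 3, at log2 fold changes of -1.61 to -1.35 and adjusted p of 0.0433 to 0.116, and in each altitude alone (0.231 at high, 0.0742 at low altitude). MiR-873-5p had 0 counts in all hearts and 13.9 to 43.8 CPM in lung, where heart was at least 538-fold lower. Against spleen, liver, muscle and kidney heart was at least 24.1-, 9.21-, 8.61- and 6.38-fold lower. A call against muscle or kidney was lost in all 12 runs with a heart library or a goat left out, that against muscle in 11 (adjusted p from 0.0527 up), and with a replicate block (0.0543).

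Some abundant miRNAs were lower in heart than in most tissues. MiR-10a-5p, from the HOXB cluster, had 622 to 3278 CPM in heart against means of 114490 CPM in kidney (log2 fold change -6.18) and 95437 in lung (-5.63), and was also lower than in muscle (-2.30) and spleen (-2.20). In liver its mean was 1995 CPM (-0.34). MiR-532-5p, of an X-linked cluster, had 44.0 to 67.2 CPM in heart and was lower than in muscle (-3.50), kidney (-2.94), spleen (-1.82) and lung (-1.57). Its lung call was lost without high-altitude goat 2 (-1.45) or 3 (-1.34). MiR-21-5p, a miRNA abundant in fibroblasts and leukocytes, had 1483 to 2807 CPM in heart and was lower than in spleen (-3.27), lung (-2.40), liver (-2.37) and kidney (-1.59, lost without low-altitude heart 1 at -1.46). Against muscle it was -0.85 and not called. MiR-532-5p was chosen after its values were seen.

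**Figure D4:**
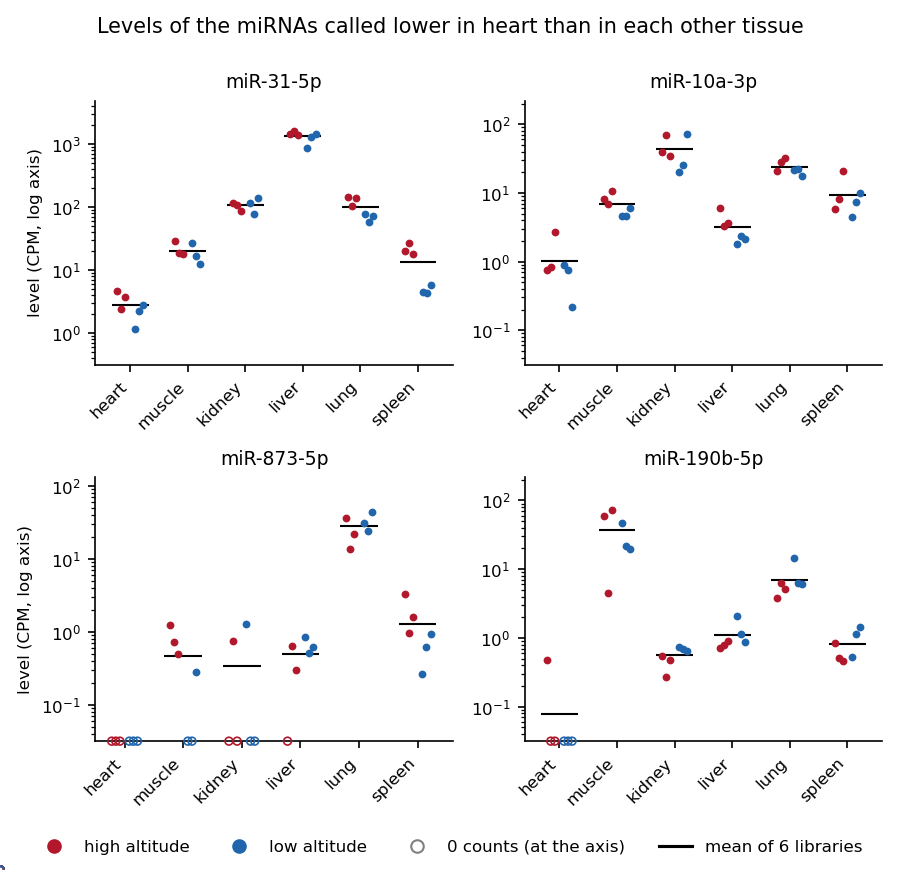
Level of miR-31-5p, miR-10a-3p, miR-873-5p and miR-190b-5p in the 6 tissues, in CPM on a log axis. Each point is 1 library (red, high altitude; blue, low altitude), open circles on the axis are libraries at 0 and black lines are the means of 6 libraries.

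By abundance, a handful of miRNAs filled most of each heart library: the 10 largest, with repeated counts taken once, took 67.8% to 74.8% of counts, against 73.5% to 83.5% in muscle. By mean share, after miR-133a-3p came miR-26a-5p (13.0%), a miRNA found at high level in most tissues, and miR-143-3p (12.9%), known from smooth muscle. These are means over both altitudes: miR-143-3p took 19.8%, 13.3% and 20.8% in the high-altitude hearts and 7.79%, 8.35% and 7.07% in the low-altitude hearts, and was the largest in high-altitude hearts 1 and 3. In high-altitude heart 2 the largest was miR-26a-5p at 16.3%, against 15.6% for miR-133a-3p. MiR-26a-5p was within 0.23 of liver and lung in log2 fold change and at -0.14 against muscle, and was called against no tissue. MiR-143-3p had 78544 to 213300 CPM in heart and 236480 to 496080 CPM in spleen, above all hearts (-1.24, SE 0.36, edgeR adjusted p = 0.0163, under the fold threshold). Against muscle it was 1.35, past the threshold at 1.60 to 1.82 without high-altitude heart 1, 2 or 3, low-altitude heart 2 or 3 or high-altitude goat 1. MiR-27b-3p followed at a mean of 7.05%, miR-100-5p at 4.34%, miR-30e-5p at 4.31%, miR-125b-5p at 4.10% and miR-30a-5p at 3.92%. MiR-100-5p took 1.60%, 0.776% and 1.94% in the high-altitude hearts and 9.40%, 9.15% and 3.15% in the low-altitude hearts. For miR-125b-5p these were 2.40%, 2.31% and 2.63%, and 6.98%, 7.01% and 3.29%. In each high-altitude heart miR-30a-5p (6.16%, 3.95% and 4.38%) and miR-30e-5p (3.08%, 5.86% and 2.67%) were above both.

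Of these, miR-125b-5p and miR-30e-5p were called higher in heart than in the 4 tissues other than muscle. MiR-125b-5p had 22696, 31193 and 100020 CPM as lowest, median and highest heart values, with log2 fold changes of 1.89 over kidney, 2.62 over liver, 3.08 over lung and 3.13 over spleen. Over muscle, next highest at a mean of 16510 CPM, it was 1.44 (SE 0.34, edgeR adjusted p = 0.00393, higher in 6 of 6 goats), under the fold threshold. It passed at 1.52 to 1.94 in 8 of 12 runs, those without high-altitude heart 1, 2 or 3, low-altitude heart 2 or 3, high-altitude goat 1 or 3 or low-altitude goat 2. MiR-30e-5p had 25430 to 82578 CPM in heart, with values of 1.81 over kidney, 2.08 over liver, 2.95 over lung and 2.67 over spleen, and 1.15 over muscle (SE 0.26, adjusted p = 0.00272), past the threshold at 1.53 to 1.56 without high-altitude heart 1 or 3 or high-altitude goat 1. Its kidney call was lost without high-altitude goat 2 (1.41). MiR-30a-5p was not called against kidney (-1.26), liver or lung and was higher than in muscle (2.11) and spleen (2.21). Against kidney it was called lower in the low-altitude goats alone (-1.52, adjusted p = 0.00646) and without low-altitude goat 2 (-1.62, adjusted p = 0.00823), and with no minimum fold.

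Grouped by list, most striated muscle miRNAs were higher in heart than in the mean of the other tissues. Of 14 myomiR names, with both arms of miR-486 among them, 11 were higher and 0 lower. The median log2 fold change was 5.88, or 5.72 with members absent from a tissue held at their bound. With miR-133a-3p and miR-133b-5p taken as 1 measurement these were 10 of 13 (median 5.88, or 5.57). Over all 1391 miRNAs 92 were higher and 49 lower, with a median of -0.42 (-0.11 at the bounds). The myosin-intron list, the 6 arms of miR-208a, miR-208b and miR-499, was higher for 6 of 6 (median 6.97), and 2 of these were higher than each tissue. The miR-208a-5p call against the mean was lost without high-altitude heart 2 or high-altitude goat 2 (3.38 to 3.58). Summed in this way, the myomiRs took 15.9% to 19.3% of counts in the high-altitude hearts, 18.9%, 17.0% and 30.01% in the low-altitude hearts and 36.1% on average in muscle. In liver the mean was 0.895%, in lung 0.785%, in spleen 0.566% and in kidney 0.102%. MiR-486-5p alone held 1.43% to 5.91% of heart counts and 2.99% on average in muscle. For the myosin-intron list the order of heart and muscle was reversed, with 1.88% to 2.96% in heart and 0.363% in muscle.

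Against the mean of the tissues, 6.61% of all miRNAs were higher, and several families held such members. In the miR-30 family 5 of 10 were higher (miR-30e-5p, miR-30c-5p, miR-30c-3p, miR-30a-3p, miR-30d-3p) and 0 lower (median 1.73), or 4 with RLE factors and 4 with library totals alone. Both arms of miR-30c were at 0 in high-altitude hearts 1 and 3. The family summed to 8.63% to 13.7% of heart counts, above muscle (3.84%) and below kidney (14.6%). In the miR-23, miR-24 and miR-27 clusters 4 of 8 were higher (miR-27b-3p, miR-23b-3p, miR-24-3p, miR-24-5p; median 1.84), or 2 with library totals alone, and the sum was 7.51% to 8.92% in heart and 2.24% in muscle. The miR-99, miR-100 and miR-125 family had 3 of 12 higher (miR-99a-5p, miR-100-5p, miR-125b-5p; median 0.54), or 2 with library totals alone. Its sum was 6.46%, 4.09% and 6.80% in the high-altitude hearts and 26.6%, 25.2% and 10.1% in the low-altitude hearts. Of 8 metabolic host gene miRNAs 2 were higher, both arms of miR-378 (median -0.71), with a sum of 1.79% to 3.74% in heart and 4.61% in muscle. Of 15 let-7 names 2 were higher, let-7c-3p and let-7e-3p (median -0.05), or 1 with library totals alone. Their sum was 1.07% to 3.01% in heart, against 1.58% on average in kidney and 2.62% in muscle, while lung (4.33%), spleen (4.62%) and liver (4.79%) lay above all hearts.

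Lists without a call in either direction against the mean of the tissues were the miR-15 and miR-16 family (12 names, median -0.78), miR-221 and miR-222 (5 names, 1.34), smooth muscle (8 names, -0.07), endothelial (2 names, 0.37), erythroid (2 names, 1.32, or 1.05 at the bounds) and hepatocyte miRNAs (2 names, -1.80). Each had calls against single tissues. The miR-15 and miR-16 family was lower than spleen for 5, lung for 3 and liver for 1, and smooth muscle names were lower than spleen for 2. Over all miRNAs 6.61% were lower than in spleen, 4.46% than in lung and 6.47% than in liver. MiR-221 and miR-222 were higher than liver for 3 and muscle for 2, beside 5.25% and 3.02% of all miRNAs. Hepatocyte names were lower than liver for 2, erythroid names higher than lung for 2 and endothelial names higher than spleen for 1. Beside these, 6.47% of all miRNAs were lower than in liver, 5.32% higher than in lung and 5.1% higher than in spleen. Both erythroid calls, of miR-144-3p and miR-144-5p, were lost in 4 of 12 runs. These were the runs without high-altitude heart 2, high-altitude goat 2 or low-altitude goat 1 or 2. With library totals alone 2 of the miR-15 and miR-16 family were lower than the mean. In the miR-17-92 and miR-106b-25 clusters 1 of 17 was higher, miR-93-5p (median -0.18, or -0.12 at the bounds). Of 86 DLK1-DIO3 names 3 were lower, miR-154b-3p, miR-376d-3p and miR-410-3p (median -0.62, or -0.56), or 5 with library totals alone. Over all miRNAs 6.61% were higher than the mean and 3.52% lower. Against kidney alone 27 of the 86 were lower, beside 7.55% of all miRNAs. Each list median kept its sign with RLE factors and with library totals, except the endothelial median, which went to -0.11 with library totals.

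Markers of epithelial cells were low in heart, and about as low in muscle. Of 18 epithelial names 10 were lower than the mean of the tissues (miR-141-3p, miR-200a-3p, miR-200a-5p, miR-200c-3p, miR-429-3p, miR-203-3p, miR-205-5p, miR-182-5p, miR-183-5p, miR-96-5p), with a median of -3.23, or -3.02 at the bounds. They summed to 0.00167% to 0.00749% of heart counts, against 0.935% in lung, 0.392% in kidney, 0.144% in liver, 0.00991% in spleen and 0.00547% in muscle, with miR-200a-3p the most abundant in heart and 4 names at 0. MiR-141-3p, of the miR-200 family, had 3.94 to 13.8 CPM in heart against a lung mean of 5158 (log2 fold change -9.45) and a kidney mean of 1023 (-7.09). It was at 0.07 against muscle. Of the 18 names, 14 were lower than in lung, 12 than in kidney, 10 than in liver, 2 than in spleen, with miR-200a-3p higher, and 1 than in muscle, miR-96-5p. Over all miRNAs 4.46% were lower than in lung, 7.55% than in kidney, 6.47% than in liver, 6.61% than in spleen and 4.6% than in muscle. Against the mean of the tissues 3.52% were lower. The call of miR-200a-3p (1.67) was lost without high-altitude heart 3 (1.37). That of miR-96-5p (-4.16) was kept only without low-altitude heart 2 or low-altitude goat 2, lost in the other 10 of 12 runs (adjusted p of 0.0626 to 0.346) and lost with a replicate block (0.096). The miRNA miR-96-5p was chosen after its values were seen. Of 4 liver, kidney and gut epithelial names 3 were lower, miR-194-5p, miR-194-3p and miR-215-5p (median -2.28). MiR-194-5p had 125 to 233 CPM in heart, -6.31 against liver and -3.90 against kidney. Of 8 ciliated cell names 4 were lower, miR-34b-5p, miR-34b-3p, miR-34c-5p and miR-449a-3p (median -3.14, 3 at 0). Their sum was at most 0.00203% in heart and 0.00306% in muscle, against 0.719% in lung. What part of these differences came from cell content was not tested.

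HOX cluster miRNAs were also low: 4 of 12 were lower, miR-10a-5p, miR-10a-3p, miR-196a-5p and miR-196b-5p (median -2.96, or -2.82 at the bounds), and 4 were at 0 in heart. Over all miRNAs 3.52% were lower than the mean. The list was led by miR-10b-5p and took 1.01% to 2.15% of heart counts, against 40.9% in kidney, 13.97% in muscle, 12.4% in lung and 2.95% in spleen, while liver was lower than heart at 0.505%. MiR-10b-5p had 11332 to 21234 CPM in heart, log2 fold changes of -4.71 against kidney and -3.66 against muscle, and 2.99 over liver. MiR-196b-5p had 0.458 to 4.01 CPM in heart, -7.86 against kidney and -7.82 against muscle.

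Among blood and stromal lists, 1 of 13 leukocyte names was lower than the mean, beside 3.52% of all miRNAs. It was miR-142-3p (list median -1.13), and with library totals alone 3 names were lower. The most abundant name was miR-142-5p. The 13 names summed to 0.603%, 0.319% and 0.502% in the high-altitude hearts and 0.302% to 0.329% in the low-altitude hearts. In muscle the sum was 0.201% and in spleen 5.54%. MiR-142-5p had 1530 to 3697 CPM in heart, -3.38 against spleen and 1.09 over muscle (edgeR adjusted p = 0.0719). Without high-altitude heart 2 the muscle comparison was called (1.51, adjusted p = 0.00526). The lung comparison, not called in the main fit, was called lower in 5 of 12 runs (-1.75 to -1.52). Of 16 fibroblast and mesenchymal names 3 were lower, miR-21-5p, miR-21-3p and miR-29a-5p (median -0.46), and the list, led by miR-199a-3p, took 0.931% to 1.29% in heart and 4.81% in spleen. Smooth muscle miRNAs summed to 7.29% to 20.9% in heart, 23.6% in lung, 42.9% in spleen and 4.13% in muscle. The endothelial miR-126-3p had 5861 to 19294 CPM in heart, higher than in spleen (1.92, adjusted p = 3.04e-06) and close to lung (-0.21). MiR-122-5p of hepatocytes was lower than in liver (-9.59) and called against no other tissue. The erythroid miR-144-3p was at 0 in 3 hearts and at 42.5, 92.7 and 125 CPM in the other 3.

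Altitude was tested for its effect on how heart stood against the other tissues. In edgeR 0 miRNAs (0%) were called in this interaction, with 41 at unadjusted p < 0.05, and DESeq2 called 18, among them miR-499-5p (-2.78, adjusted p = 0.0497). The lowest edgeR adjusted p was 0.342, for miR-1304-5p (4.72). A fit limited to miRNAs averaging 10 CPM or more called 1, again miR-1304-5p (4.87), and the fit without miRNAs with gapped values, chosen after seeing the data, called 7, again with miR-499-5p (-2.83). Without low-altitude heart 3 there was 1 call, miR-125b-3p (4.92), without high-altitude goat 1 there was 1, miR-1304-5p (4.71), and without low-altitude goat 1 there were 3, miR-223-3p (-5.82), miR-708-5p (-3.30) and miR-708-3p (-4.02). In the main model miR-499-5p was at -3.05 (SE 0.94) and miR-208b-3p at -1.92. MiR-1304-5p and the miRNAs called in these runs were chosen after their values were seen.

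The 13 enriched miRNAs had positive log2 fold changes over all 5 tissues within each altitude. With 3 goats per group, 0 of the 13 were called against all 5 tissues in the high-altitude goats alone and 7 in the low-altitude goats alone. The 4 depleted miRNAs had negative values in both. Both sets were chosen in the fit that averages the altitudes, so these signs were no separate test.

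Some counts were gapped or repeated between similar miRNAs, and the cause was not tested. In 45 miRNAs a heart group held both zeros and high values, such as miR-30c-5p with 0, 3903 and 0 CPM in the high-altitude hearts and 4441, 6197 and 4864 CPM in the low-altitude hearts. They held 0 of the 13 miRNAs higher than each tissue, 5 of the 92 higher than the mean and 0 of the 49 lower than it. Over all 12 groups of tissue and altitude, 176 miRNAs held 0 beside at least 100 counts within a group. MiR-708-3p of the 13 was among them, at 24.7, 0 and 0 CPM in the low-altitude spleens. MiR-199b-3p and miR-199c-3p were each at 0 where the other had counts, in all 36 libraries. MiR-103-3p at 675 to 1086 CPM and miR-107-3p at 674 to 1084 CPM were near equal in heart, and their reads cannot be told apart from these tables.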

How the data were processed

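The values are counts of reads per mature miRNA, 1391 names in 36 libraries, taken as integers from the table the authors deposited. Upstream steps are the submitters': CASAVA 1.8 base calling, mapping with Bowtie to the goat genome ARS1 with 0 mismatches, and quantification with miRDeep2 against miRBase release 21, keeping miRNAs with at least 3 reads.

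Groups were the 12 combinations of tissue and altitude, and the altitudes were averaged with equal weight. edgeR 4.0.16 (quasi-likelihood, TMM) in R 4.3.3 gave fold changes and Benjamini-Hochberg adjusted p, with calls at adjusted p < 0.05 and a log2 fold change of at least 1.5 in size. DESeq2 1.42.0 was the second tool. Summaries used Python 3.11.15, pandas 2.3.3, NumPy 2.4.6 and matplotlib 3.10.9. A group with all libraries at 0 was bounded at 3 counts over the group.

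Numbers in the library labels were read as the goat, since the study took 6 tissues per goat. Over 308 miRNAs the 30 pairs of heart and another tissue with the same number had residual correlations of -0.362 to 0.458, with a median of -0.0466 and 6 above 0.1, so the number could not be checked from the counts. The goat was used in the counts of goats, in the left-out goats and in a replicate block.

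Named miRNAs were the markers and other myomiRs with counts, up to 15 with the largest fold over the next tissue among those higher than each tissue with a heart mean of at least 10 CPM (11 qualified), up to 10 depleted with at least 10 CPM in the next lowest tissue (1 qualified), the 10 most abundant in heart and the 3 most abundant of each list. This gave 77. Others were chosen after their values were seen, and not all of them are marked where they appear. Members and lists were chosen with earlier results of these data known. The 21 lists are the myomiRs, myosin-intron, smooth muscle, endothelial, fibroblast, erythroid, leukocyte, hepatocyte, epithelial, liver, kidney and gut epithelial, ciliated cell, HOX cluster, miR-30, let-7, metabolic host gene, miR-23/24/27, miR-99/100/125, miR-15/16, miR-17-92 and miR-106b-25, miR-221/222 and DLK1-DIO3 miRNAs, and 12 of their precursors had no listed miRNA, such as miR-451 and miR-192.

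Alternatives were other scalings (RLE, library totals), filters (filterByExpr, a mean of at least 10 CPM), robust spread, no minimum fold, no altitude term, each altitude alone, DESeq2, the replicate block, each heart library and each goat left out (12 runs), the fit without gapped miRNAs and the fit with repeated rows once, these last 2 chosen after seeing the data. Shares of counts take repeated rows once. Tests within the other 30 libraries and altitude effects within a tissue were left out.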

Additional observations from a re-analysis of the deposited data

Results flagged for a closer look

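Of the 77 named miRNAs, 7 had a heart library outside the spread of the others. The rule flags about 1 in 20 groups of 6 values drawn from 1 normal distribution. The hearts came from both populations and some values were 0, so that rate may not hold here. MiR-1-3p was 29507 CPM in low-altitude heart 3 and 462 to 10341 CPM in the others. MiR-208a-5p was 11.9 CPM in low-altitude heart 3 and 0 to 2.08 CPM in the others. MiR-486-5p was 56262 CPM in high-altitude heart 3 and 13991 to 28534 CPM in the others. MiR-490-3p was 1122 CPM in low-altitude heart 2 and 441 to 622 CPM in the others. MiR-200b-3p was 18.5 CPM in high-altitude heart 1 and 0 to 5.76 CPM in the others. MiR-34c-5p was 17.0 CPM in high-altitude heart 2 and 1.64 to 6.31 CPM in the others. MiR-221-3p was 319 CPM in low-altitude heart 2 and 0 in the others.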

How the results depend on the processing

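In the main fit 13 miRNAs were higher and 4 lower than each tissue, 92 higher and 49 lower than the mean, 366 called against at least 1 tissue (kidney 175, liver 163, lung 136, muscle 106, spleen 163) and 0 in the interaction. With the goat as replicate block the counts were 13, 4, 67 and 47, with 337 against at least 1 tissue and 0 in the interaction. Members of the 13 and the 4 changed under this block. MiR-123-5p and miR-202-3p were no longer among the 13, nor miR-873-5p among the 4. The other settings that moved a count were these. With library totals alone 9 were higher and 8 lower than each tissue, and 71 higher and 67 lower than the mean. With a mean of at least 10 CPM 2 were lower than each, 42 higher than the mean, 201 called against at least 1 tissue, 113 against kidney, 101 against liver, 88 against lung and 98 against spleen, and 1 in the interaction. DESeq2 called 69 higher and 101 lower than the mean and 18 in the interaction. Without an altitude term 175 were higher than the mean. In the high-altitude goats alone 0 were higher and 1 lower than each tissue, 53 higher and 32 lower than the mean, 158 called against at least 1 tissue, 70 against kidney, 60 against liver, 57 against lung, 30 against muscle and 69 against spleen. In the low-altitude goats alone 2 were lower than each, 116 called against kidney and 100 against spleen. Without gapped miRNAs, a setting chosen after seeing the data, 7 were called in the interaction. With the repeated row of miR-133a-3p taken once, also chosen after seeing the data, the counts were 13, 4, 90 and 49. With a heart library or a goat left out the counts were 8 to 16 higher and 2 to 4 lower than each tissue and 0 to 3 in the interaction. RLE factors gave 12 and 5, filterByExpr 15 and 5, robust spread 14 and 4 and no minimum fold 19 and 5. For the named miRNAs 1728 of 1904 comparisons kept their side of the threshold, 96 were newly past it, 80 no longer past it and 0 reversed. The cause of these shifts was not tested.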

Other observations

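Beyond the named myomiRs, further miRNAs were shared by heart and 1 other organ, and those given here were chosen after their values were seen. MiR-30f-5p had a lowest, median and highest heart value of 295, 943 and 2321 CPM and overlapped kidney, at 599 to 4409 CPM (log2 fold change -0.72, SE 0.35). Over muscle, lung, spleen and liver it was 2.81, 2.86, 2.91 and 3.26, each higher in heart in 6 of 6 goats. MiR-628-3p had 22.0 to 166 CPM in heart and 17.4 to 122 CPM in muscle, and log2 fold changes of 2.71 to 3.45 over the other 4 tissues. MiR-1296-5p had 51.6 to 79.6 CPM in heart and 30.3 to 70.5 CPM in muscle (0.21, SE 0.31), and was 1.72 over kidney, 1.91 over spleen, 2.10 over liver and 2.45 over lung. MiR-2985-5p, near the floor, had 1.28 to 4.68 CPM in heart and 0 to 5.76 CPM in muscle. It was at 0 in liver, lung and spleen, where heart was at least 74.2-, 99.0- and 85.3-fold higher.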
